A study of Homo sapiens with 6 samples.

Results

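Bone-forming cells are recognised by a small set of transcripts, and 9 of these osteoblast genes were followed here in SaOS-2 cells, a human osteosarcoma line. The genes were chosen by symbol from the table of normalized counts, which has 23228 rows: the regulators RUNX2, DLX5 and SP7, the mineralization enzyme ALPL, the matrix genes SPARC, IBSP, SPP1 and BGLAP, and the peptidase gene PHEX. All 9 had a row, and 6 of them passed the filter for testing, a mean normalized count of at least 10 over all libraries. PHEX and SPP1 had a handful of reads and BGLAP was listed at 0.

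The study asked how RB, p130 and p107 repress cell cycle genes after DNA damage, mainly in fibroblasts. Its part used here induced p21, an inhibitor of cyclin-dependent kinases, in cells that the study describes as null for RB. All 6 libraries came from SaOS-2 cells that carry a doxycycline-inducible p21 vector, 3 of them left untreated (p21 OFF) and 3 exposed for 24 h to doxycycline at 1 μg/ml (p21 ON). No library of doxycycline-treated cells without the vector was analysed here, so the drug and p21 cannot be told apart, and whether the line is a single clone is not given in the sources used here. The labels do not say that replicates came from separate cultures, and p-values measure the spread between these libraries. Libraries held from 12795490 to 21975045 reads on genes, with the p21 OFF libraries both the smallest and the largest. CDKN1A, the gene of p21, had 1266 ± 84.5 normalized counts in p21 OFF and 43691 ± 3138 in p21 ON cells (SD, n = 3 each), 34.5-fold more.

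Osteoblasts arise from mesenchymal progenitors under RUNX2, with SP7 (osterix) acting downstream of it and the homeobox factor DLX5 upstream. Early osteoblasts make alkaline phosphatase, type I collagen and SPARC (osteonectin). Mature cells add the mineral-binding proteins bone sialoprotein (IBSP), osteopontin (SPP1) and osteocalcin (BGLAP), and PHEX is made by late osteoblasts and osteocytes.

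RUNX factors bind a short core, TGTGGT or its reverse complement ACCACA, and many tissue-restricted genes carry a TATA box, so the promoters of the members were read for both. The windows searched were the 250 bases before the start of the canonical transcript, read from GRCh37 on the strand of the gene. For 5 members the part before the first annotated start of the gene is given, 5′ to 3′, with matches to the RUNX core or to TATAAA (either strand) in capitals. The first 3 sequences hold the RUNX core and belong to the regulator itself and to matrix genes, and the last 2 belong to the members that fell with p21.
RUNX2, chr6:45295817-45295893, plus strand: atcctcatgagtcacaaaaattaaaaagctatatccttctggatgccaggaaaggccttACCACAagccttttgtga
BGLAP, chr1:156211725-156211974, plus strand: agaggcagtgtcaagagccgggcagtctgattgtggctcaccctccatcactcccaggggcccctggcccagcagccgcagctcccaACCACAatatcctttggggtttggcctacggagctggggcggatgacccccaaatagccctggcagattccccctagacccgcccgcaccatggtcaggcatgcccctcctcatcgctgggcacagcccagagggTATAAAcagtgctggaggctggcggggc
SPP1, chr4:88896616-88896818, plus strand: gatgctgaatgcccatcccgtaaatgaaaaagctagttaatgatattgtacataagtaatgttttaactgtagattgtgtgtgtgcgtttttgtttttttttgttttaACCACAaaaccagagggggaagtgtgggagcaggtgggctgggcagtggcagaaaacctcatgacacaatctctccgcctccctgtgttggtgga
IBSP, chr4:88720456-88720705, plus strand: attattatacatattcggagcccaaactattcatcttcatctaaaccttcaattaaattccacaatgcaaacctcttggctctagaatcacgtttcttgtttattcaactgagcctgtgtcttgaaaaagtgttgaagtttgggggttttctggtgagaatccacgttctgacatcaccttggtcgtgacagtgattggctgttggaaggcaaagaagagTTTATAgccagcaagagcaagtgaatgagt
DLX5, chr7:96654263-96654393, minus strand: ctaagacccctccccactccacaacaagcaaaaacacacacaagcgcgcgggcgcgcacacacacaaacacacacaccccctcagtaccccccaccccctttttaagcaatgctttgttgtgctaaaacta

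The RUNX core stood in the windows of 4 of the 9 members, RUNX2 itself with 2 matches, 191 and 87 bases before the start (the first is in the stretch shown), and BGLAP, SPP1 and PHEX with 1 each, against 8.78% of 18615 windows of protein-coding genes. TATAAA stood in those of ALPL, BGLAP and IBSP, 3 of 9, against 9.08% of all windows. The IBSP match lay 30 bases before the start and the BGLAP match 28 bases before it. The DLX5 and SPARC windows held no match to these 2 motifs or to the GC box GGGCGG, the homeobox core TAATTA or the cell cycle element TTTGAA, which stood in 60.3%, 2.82% and 9.82% of all windows. TTTGAA was found in the PHEX window alone among the members. The GC content of the windows ran from 36% for PHEX and 40% for IBSP to 83.6% for ALPL, with a median of 63.6% over all windows. The letters alone do not show that a factor binds there.

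Expression levels of different genes were compared as RPKM, the reads per kilobase of exon scaled to the reads on genes of the library, over the 6 libraries. ALPL, tissue-nonspecific alkaline phosphatase, which splits pyrophosphate so that mineral can form, stood at 771 ± 36.6 RPKM (SD, n = 6) and ranked 9 among 20908 genes with a known length. SPARC, a secreted glycoprotein that binds collagen and calcium, followed at 268 ± 4.74 RPKM and rank 50. These 2 genes lay far above the median of 3.01 RPKM over the 16766 genes above 0.

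The regulators came next. SP7 had 101 ± 3.64 RPKM and rank 261, DLX5 44.9 ± 4.23 RPKM and rank 863, and RUNX2 26.0 ± 1.90 RPKM and rank 1767 (SD, n = 6 each). The libraries of each of these genes did not overlap with those of the next gene down the order. The step from SP7 to DLX5 was 2.25-fold and that from DLX5 to RUNX2 1.72-fold.

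IBSP, a phosphorylated sialoprotein of the mineralizing matrix, was expressed 5.74-fold below RUNX2, at 4.54 ± 0.641 RPKM (SD, n = 6), rank 7128. Below IBSP the level dropped 172-fold, to 0.0263 RPKM for PHEX and 0.0170 RPKM for SPP1, and the libraries of PHEX, SPP1 and BGLAP were not separated from each other. Measured per base of the canonical transcript in place of all exons, the order from ALPL to IBSP was the same, while SPP1 at 0.0788 RPKM stood above PHEX at 0.0435 RPKM. Places among all genes were lower with that length, at rank 24 for ALPL, 94 for SPARC and 579 for SP7. DLX5 then stood at rank 1353, RUNX2 at 2067 and IBSP at 8478. In bulk RNA, fewer cells that express a gene and less RNA per cell cannot be told apart.

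**Figure D1:**
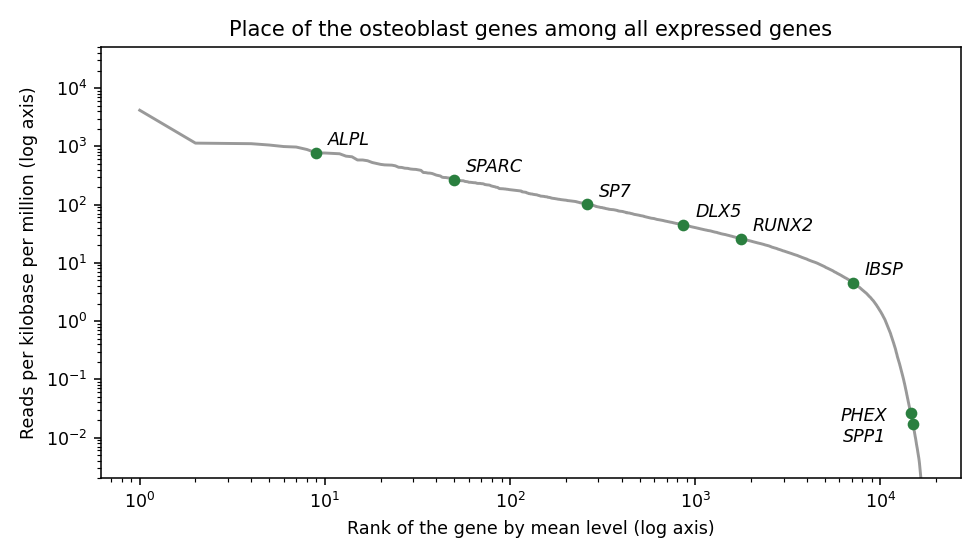
Mean level over the 6 libraries (RPKM, log axis) of every gene above 0 against its rank (log axis, grey line), with 8 of the osteoblast genes as green points. ALPL lies at rank 9 and RUNX2 at rank 1767, all 6 tested members stand above 1 RPKM, and PHEX and SPP1 lie at the foot of the curve, where BGLAP at 0 cannot be drawn.

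Of the 6 tested members none was called higher and 2 were called lower in p21 ON cells (limma, Benjamini-Hochberg adjusted p under 0.05), DLX5 and IBSP. None was higher at an unadjusted p under 0.05 either, nor with edgeR or DESeq2 on the reads. Over all 13255 tested genes, 10.5% were called higher and 12.7% lower, 23.2% in either direction. In these 2 and no other tested member every p21 ON library lay below every p21 OFF library, as was the case in 21.3% of all tested genes. The median log2 fold change of all tested genes was 0.0056. Fold changes are on the scale log2(normalized count + 1), p21 ON minus p21 OFF. With 3 libraries against 3, an exact two-sided permutation test of a single gene cannot go below p = 0.1, the value reached by DLX5 and by IBSP.

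RUNX2 (chr6:45295894-45632086, plus strand), the runt-domain factor without which no osteoblasts form, had normalized counts of 3028, 3463 and 3746 with p21 OFF and of 3568, 3228 and 3413 with p21 ON. The p21 ON values lay inside the p21 OFF range. The log2 fold change was 0.00039 with a 95% interval from -0.15 to 0.15 (limma, adjusted p = 0.998), so a change of the size seen in IBSP lay outside the interval.

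SP7 (chr12:53720359-53739099, minus strand), a zinc-finger factor of committed osteoblasts, had 5212, 5874 and 5619 normalized counts in p21 OFF and 5362, 5220 and 5466 in p21 ON libraries. The groups overlapped, and the p21 ON libraries lay closer together (SD 123 against 334). Its log2 fold change was -0.06, with an interval from -0.18 to 0.07 (limma, adjusted p = 0.527).

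DLX5 (chr7:96649708-96654262, minus strand), a distal-less homeobox factor of the developing skeleton, fell with p21. It had 1343, 1471 and 1281 normalized counts in p21 OFF libraries and 1129, 1121 and 1170 in p21 ON libraries. The lowest p21 OFF library stood above the highest p21 ON library. The means were 1365 ± 96.9 and 1140 ± 26.1 (SD, n = 3 each), 0.84-fold in p21 ON with a 95% interval from 0.76 to 0.92, which is -0.26 as log2 (standard error, SE, 0.07; limma, Benjamini-Hochberg adjusted p = 0.0105). Without p21 OFF replicate 2, the library with the most DLX5, the value was -0.20 with an adjusted p of 0.0674, and without p21 ON replicate 1 it was -0.25 with 0.0547, so either omission ended the call. DLX6, its neighbour 9.36 kb away on chromosome 7 and a homeobox gene of the same family, had a log2 difference of -0.10, with means of 251 ± 14.1 and 234 ± 8.78 (SD, n = 3 each; limma, adjusted p = 0.457).

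ALPL (chr1:21835890-21904903, plus strand) had 35363, 35370 and 37346 normalized counts in p21 OFF libraries and 37106, 35898 and 38901 in p21 ON libraries. The groups overlapped. Its log2 fold change was 0.05, with a 95% interval from -0.08 to 0.18 (limma, adjusted p = 0.60).

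SPARC (chr5:151040657-151066536, minus strand) had 20020, 20096 and 20306 normalized counts in p21 OFF and 19445, 20172 and 19220 in p21 ON libraries. One p21 ON library fell within the p21 OFF range and the other two lay below it. The log2 fold change was -0.04, with an interval from -0.16 to 0.08 (limma, adjusted p = 0.662). Exons of an antisense RNA cover 1.48% of its canonical transcript, and the strand setting of the counting is not given in the sources used here.

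IBSP (chr4:88720706-88733587, plus strand) fell with p21, at a low count. Its 111, 158 and 170 reads in p21 OFF libraries gave 139, 123 and 126 normalized counts, and the 82, 82 and 107 reads in p21 ON libraries gave 95.5, 99.9 and 102. Every p21 ON library lay below every p21 OFF library, and the groups were farther apart than the libraries within them. The means were 129.5 ± 8.66 and 99.0 ± 3.20 (SD, n = 3 each), 0.77-fold in p21 ON with a 95% interval from 0.65 to 0.91, which is -0.38 as log2 (SE 0.12; limma, Benjamini-Hochberg adjusted p = 0.0264). With a library left out the log2 value stayed between -0.42 and -0.33, while the call did not always hold. The adjusted p was 0.0796 without p21 OFF replicate 1 (-0.33), 0.0982 without p21 ON replicate 1 (-0.36), 0.0518 without p21 ON replicate 2 (-0.39) and 0.0592 without p21 ON replicate 3 (-0.40), and 0.0951 with DESeq2 on the reads (-0.38).

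**Figure D2:**
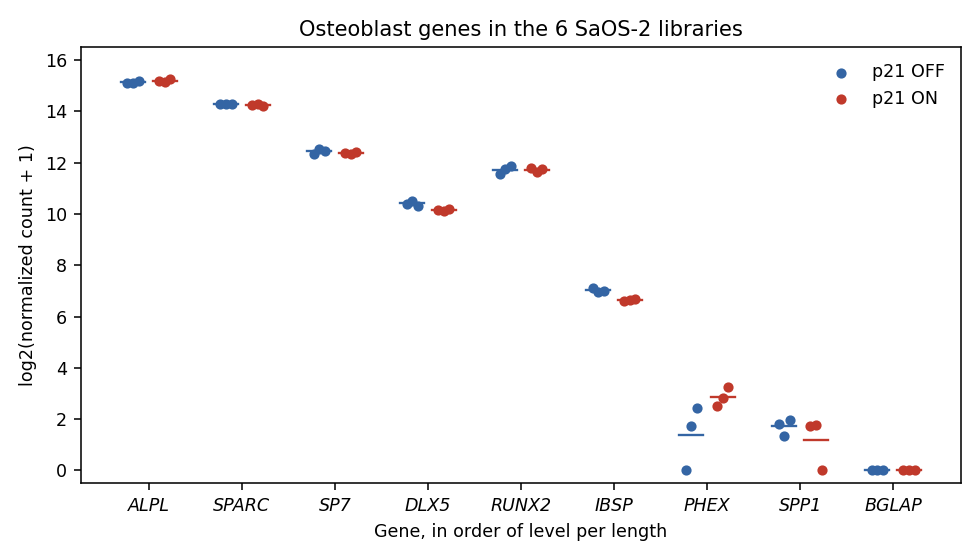
Values of the 9 members as log2(normalized count + 1) in each of the 6 libraries (points), with p21 OFF in blue, p21 ON in red and short lines at the group means, ordered by level per length. DLX5 and IBSP show p21 ON points below all p21 OFF points, whereas in RUNX2, SP7, ALPL and SPARC the groups overlap.

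Both genes that fell have short transcripts, and fold changes rose with exonic length across the table. In the shortest of 10 equal bins of tested genes, up to 2.207 kb of exon, the median log2 fold change was -0.14, with 26.0% called lower and 3.41% higher. In the longest bin it was 0.12, with 5% called lower and 22.8% higher. IBSP has 1.573 kb of exon and DLX5 1.744 kb, both in the shortest bin, while RUNX2 has 8.192 kb.

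With the trend on exonic length taken out of each library, no member was called. IBSP then had a log2 fold change of -0.24 (95% interval -0.49 to -0.0010, limma, adjusted p = 0.134) and DLX5 one of -0.13 (-0.26 to 0.01, limma, adjusted p = 0.167). ALPL moved the other way, to 0.12 (-0.0047 to 0.25, limma, adjusted p = 0.151), and RUNX2, SP7 and SPARC stood at -0.04, 0.00021 and -0.03.

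**Figure D3:**
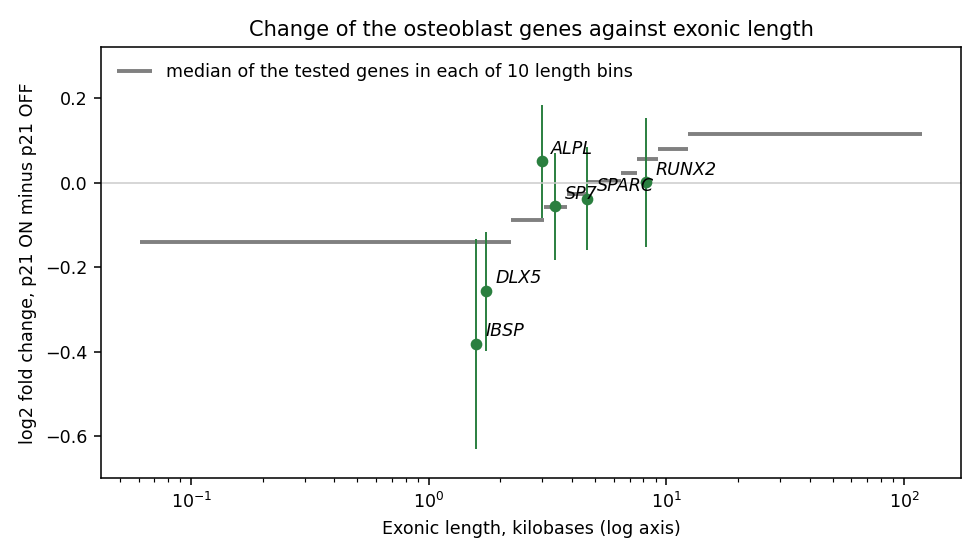
Log2 fold change (p21 ON minus p21 OFF) against exonic length (kb, log axis), with grey lines for the median of the tested genes across each of 10 length bins and green points with 95% intervals for the 6 tested members. The bin medians run from -0.14 to 0.12, and DLX5 and IBSP lie in the shortest bin and below its median.

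**Figure D4:**
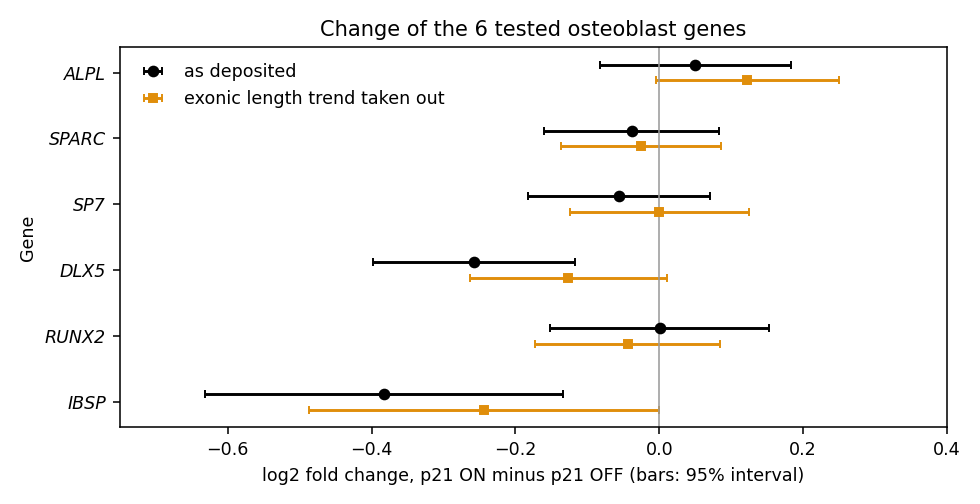
Log2 fold change of the 6 tested members with 95% intervals as bars, as deposited (black circles) and with the exonic length trend taken out (orange squares). The black bars of DLX5 and IBSP lie below 0, those of the other 4 cross it, and with the trend taken out IBSP moves to -0.24 and DLX5 to -0.13.

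PHEX (chrX:22050443-22512830, plus strand), a membrane endopeptidase whose loss causes phosphate wasting and rickets, had 0, 3 and 6 reads in p21 OFF libraries and 4, 5 and 9 in p21 ON libraries. After scaling these were 0, 2.34 and 4.43 against 4.66, 6.09 and 8.55 normalized counts, so the p21 ON values lay above, although a p21 OFF library held 6 reads and p21 ON libraries 4 and 5. In a fit without the filter on low values its log2 fold change was 1.47 (95% interval 0.38 to 2.55, limma, adjusted p = 0.0621), short of the adjusted threshold.

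SPP1 (chr4:88896819-88904684, plus strand), a phosphoprotein of bone matrix that binds integrins, had 2, 2 and 4 reads in p21 OFF and 2, 2 and 0 in p21 ON libraries. These are at the limit of 3 reads that a count of 0 allows or next to it, and a difference was not detectable at this depth. SPP1 and IBSP belong to one gene cluster on chromosome 4, with DSPP, DMP1 and MEPE, and lie 163 kb apart. Of these DMP1, an osteocyte matrix gene, had 1 or 2 reads in every library, and MEPE, which lies 8.96 kb from IBSP, had 1 to 13. IBSP was thus the one member of the cluster with a mean over 10 normalized counts in both groups.

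BGLAP (chr1:156211975-156213108, plus strand), the gene of osteocalcin, was listed at 0 in all 6 libraries. A count of 0 allows up to 3 reads, which at this gene's length is 0.243 RPKM in the smallest p21 OFF library, but the annotation gives a reason to read the 0 with care. Of the 506 bases of its canonical transcript, 394 (77.9%) are also exon of the readthrough gene PMF1-BGLAP, which was listed at 0 in all libraries too. Reads that fall on more than 1 gene are left out by common counting modes, and the mode used is not given in the sources used here.

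Readthrough rows were often at 0. Of 109 rows named as a readthrough of 2 other rows, 83 (76.2%) were at 0 in every library, against 21.6% of all rows. Of the 216 rows that, like BGLAP, are part of such a readthrough, 37 (17.1%) were at 0 in every library. That share was below the 21.6% of all rows. EIF4A1 and EIF3C, translation initiation genes that every cell uses, were also listed at 0 in all 6 libraries. They were picked after their values were seen, so they do not show how common such rows are. Why they stand at 0 was not tested. The 0 of BGLAP is given as listed, and whether SaOS-2 cells hold its RNA was not tested. PMF1, the kinetochore gene upstream that takes part in the readthrough, was measured, at 454 ± 47.3 normalized counts in p21 OFF and 320 ± 20.6 in p21 ON cells (SD, n = 3 each), and fell by 0.50 on the log2 scale (limma, adjusted p = 0.000909).

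The other genes of the bone programme were read from lists, whose counts stand against the 10.5% higher and 12.7% lower of all tested genes. Among the matrix genes, the collagen chains differed sharply in level. COL1A1, the alpha-1 chain of type I collagen, had 7245 ± 339 normalized counts in p21 OFF and 8000 ± 466 in p21 ON cells (SD, n = 3 each), a log2 difference of 0.14 (limma, adjusted p = 0.104). COL1A2, the alpha-2 chain, had 2 to 4 reads in every library. Of the bone matrix list, these collagen genes included, 15 of 22 in the table were tested, and 1 rose (FBN1), 1 fell (LUM) and 13 did not pass, with a median of 0.03. PCOLCE, which aids the trimming of procollagen, was the most abundant of the list at 292 RPKM.

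Of the osteoblast transcription factors and cofactors other than the members, 20 of 21 were tested, 1 rose, 4 fell and 15 did not pass, with a median log2 fold change of -0.05. ATF4, a bZIP factor that osteoblasts need for amino acid import, went from a mean of 3802 ± 331 down to 2993 ± 142 (SD, n = 3 each) and fell by 0.34 on the log2 scale (limma, adjusted p = 0.0017). JUNB, an AP-1 subunit, fell by 0.30 (limma, adjusted p = 0.0038), and TWIST1, a bHLH factor that restrains RUNX2, fell by 0.30 (limma, adjusted p = 0.0030). NFATC1 was called higher.

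Of 18 genes of mineralization and phosphate handling, 13 were tested, 4 rose and 1 fell, with a median of 0.03. SLC20A1, a sodium-phosphate cotransporter, rose from 1575 ± 41.6 to 1921 ± 121 normalized counts (SD, n = 3 each), by 0.28 (limma, adjusted p = 0.0041). ALPI, the intestinal relative of ALPL, and ANKH, a pyrophosphate exporter, were also called higher and ANXA2, an annexin, lower. Of 10 osteocyte genes only 4 were tested, and 1 of them, CD44, an adhesion receptor, fell by 0.36 (limma, adjusted p = 0.0020). SOST, the WNT antagonist of osteocytes, had 19 to 36 reads per library and a log2 fold change of -0.31 (limma, adjusted p = 0.352).

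Of 27 BMP ligands, receptors and mediators, 24 were tested, 2 rose and 3 fell, with a median of 0.0016. ID1, an immediate BMP target, had means of 678 ± 67.0 and 453 ± 64.5 (SD, n = 3 each) and fell by 0.59 (limma, adjusted p = 0.00037), and the BMP antagonist GREM1 fell by 0.33 (limma, adjusted p = 0.00043). BMP6 and SMAD9 were called higher and BMP4 lower. In the WNT pathway 25 of 29 genes were tested, 6 rose and 1 (FZD7) fell, with a median of 0.11. This lean was weaker with the exonic length trend taken out. FZD4 (-0.16), CTNNB1 (-0.18), AXIN1 (-0.20) and LGR4 (-0.16) were then called lower too, and WNT10B (0.31) and LEF1 (0.23) higher. The receptor FZD1 rose by 0.38 (limma, adjusted p = 0.0028) and the co-receptor LRP5 by 0.36 (limma, adjusted p = 0.0038), and NKD2 was called higher as well.

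Among 25 hormone, growth factor and coupling genes of bone, 19 were tested, 2 rose and 2 fell, with a median of 0.03. FGFR3, a growth factor receptor, rose by 0.37 (limma, adjusted p = 0.0018), and GJA1, the gap junction protein connexin 43, fell by 0.31 (limma, adjusted p = 0.0011). IGFBP5 was called higher and LIFR lower.

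Not all of these calls were stable. In the lists of bone and other cell types, 27 genes were named as called on the values as deposited. Of these 27, 12 kept the call in every alternative other than a stricter threshold. These 12 are given with their log2 change, and the others by name or count. Without p21 ON replicate 3, 12 of the 27 calls were lost, without p21 ON replicate 1, 11, without p21 OFF replicate 2, 7, without p21 OFF replicate 3 and without p21 ON replicate 2, 5 each, and without p21 OFF replicate 1, 3. With the length trend taken out, 3 were lost. Other list genes were newly called there in both directions, such as RUNX1 lower (-0.29, limma, adjusted p = 0.0032) and TNFRSF11B higher (0.35, limma, adjusted p = 0.0171). The sizes of the falls given here moved as well. JUNB and TWIST1 then stood at -0.18 each, ATF4 and GJA1 at -0.25 each and ID1 at -0.43, all nearer 0. GREM1 and CD44 moved away from 0, to -0.43 each.

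**Figure D5:**
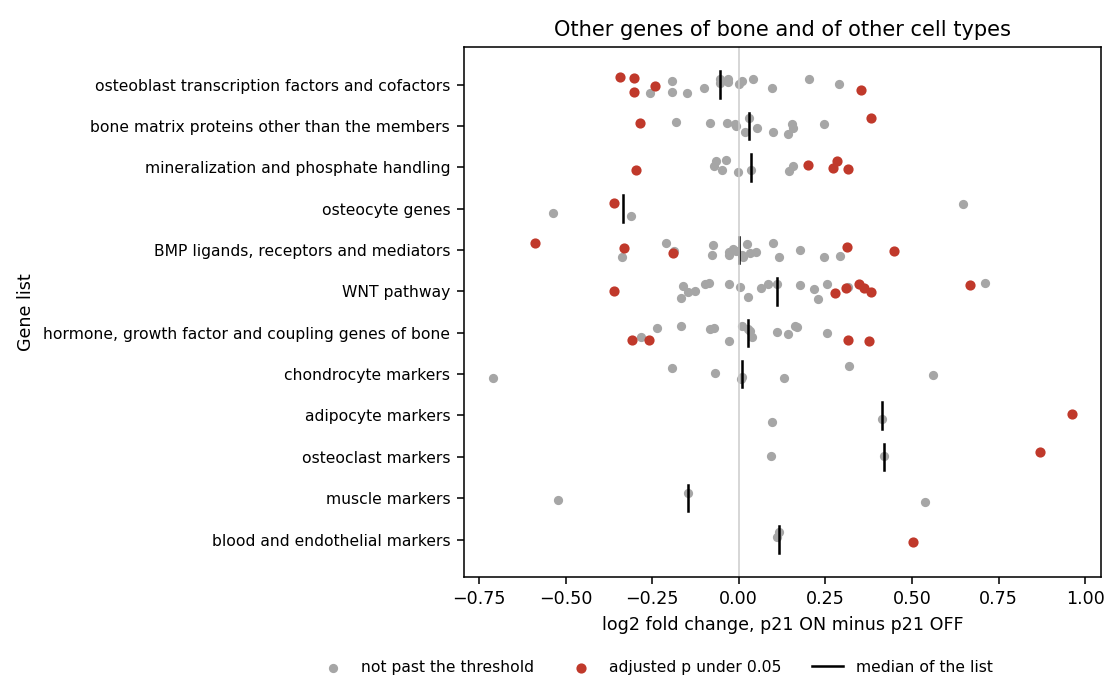
Log2 fold change (p21 ON minus p21 OFF) of every tested gene of the 7 bone lists and the 5 marker lists of other cell types, red where the adjusted p was under 0.05, with a bar at each list's median. Medians of the bone lists run from -0.33, for the 4 tested osteocyte genes, to 0.11, for the WNT pathway.

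Markers of other cell types were read beside the osteoblast genes. SOX9, the regulator of cartilage, was abundant at 77.5 RPKM, with 4844 ± 161 normalized counts in p21 OFF and 4882 ± 265 in p21 ON cells (SD, n = 3 each), whereas the cartilage matrix gene ACAN was listed at 0 and COL2A1 had 2 to 6 reads per library. COL10A1, the collagen of hypertrophic cartilage, had 530 ± 43.8 and 504 ± 26.0 normalized counts (SD, n = 3 each). The 12 chondrocyte markers summed to 84.4 to 89.2 RPKM in p21 OFF and 84.8 to 93.7 RPKM in p21 ON libraries, and of the 8 tested none was called by limma, edgeR or DESeq2, with 1 (SOX5) at an unadjusted p under 0.05. Of the osteoblast markers, RUNX2, SP7, ALPL, SPARC, DLX5, COL1A1 and, at a lower level, IBSP were expressed, PHEX, SPP1 and COL1A2 had few reads, and BGLAP was listed at 0.

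The other marker lists were summed in the same way. Adipocyte markers summed to 2.20 to 2.85 RPKM in p21 OFF and 3.92 to 4.74 RPKM in p21 ON libraries. Of the 3 tested, 1 was called higher, LPL, lipoprotein lipase, by 0.96 (limma, adjusted p = 2.48e-05). PPARG at 0.10 (limma, adjusted p = 0.724) and CEBPA at 0.41 (limma, adjusted p = 0.155) did not pass. The defining genes FABP4 and ADIPOQ were listed at 0. Osteoclast markers summed to 1.08 to 1.36 and 1.498 to 1.77 RPKM, with 1 of 3 tested called higher, and muscle markers to 3.42 to 4.53 and 3.30 to 4.29 RPKM, with none of 3 called by limma, edgeR or DESeq2 or at an unadjusted p under 0.05. Blood and endothelial markers summed to 23.0 to 25.1 and 24.4 to 27.9 RPKM, nearly all of it CD68, with 1 of 3 tested called higher.

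The genes that identify the line were read last. RB1 had 555 ± 66.8 and 654 ± 39.7 normalized counts in p21 OFF and p21 ON cells, and ATRX 44.4 ± 5.63 and 48.5 ± 7.13 (SD, n = 3 each). Neither passed the threshold, but RB1 lay close to it, with a log2 difference of 0.24 (limma, adjusted p = 0.0516). It was called higher in 3 alternatives, one of them with the length trend taken out (0.23, limma, adjusted p = 0.0443). CDKN2A, the gene of p16 and ARF, fell by 0.26 (limma, adjusted p = 0.0114), from 6856 ± 429 to 5725 ± 511 (SD, n = 3 each), a call that was lost without p21 ON replicate 1 (-0.23, adjusted p = 0.0837) or without p21 ON replicate 2 (-0.22, adjusted p = 0.0602). A transcript count does not tell whether a protein is made.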

How the data were processed

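Stranded mRNA libraries of 6 SaOS-2 samples were sequenced with single-end reads. The authors used STAR for mapping (hg19), HTSeq for counting and the size factors of DESeq2 for scaling, and the deposited values are the resulting normalized signal per gene. Annotation, counting mode, strand setting and tool versions are not given in the sources used here. Values in every library were 100% whole multiples of 1 read (tolerance 0.05 of a read), which gave back the reads (size factors 0.796 to 1.35). Replicates differed beyond sampling noise (chi-square per gene 2.72 to 9.33). The pairs with p21 OFF replicate 1 gave 8.55 and 9.33, and the other pairs 2.72 to 3.99.

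For such values limma 3.58.1 in R 4.3.3 (trend) was fitted to log2(normalized count + 1) without covariates over the 13255 genes whose mean reached 10. P-values were adjusted by Benjamini-Hochberg, and 0.05 was the threshold. Alternatives were edgeR 4.0.16 and DESeq2 1.42.0 on the reads, scalings, pseudocounts of 0.1 and 10, filters, thresholds, a replicate block, an exonic length trend and each library left out. On simulated counts for this comparison, run on 13255 genes, 100% of 200 genes changed by 1 on the log2 scale, all with a mean of at least 50, and 9 unchanged genes were called. Smaller changes were not simulated.

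Gene models are GENCODE 44 on GRCh37 coordinates (the build of hg19), matched to 20908 rows, 2063 by an older symbol. Another 26 rows bear dates in place of symbols and were not matched. Named genes were the members, CDKN1A, the line's identity genes, up to 3 called genes in each direction in each list, and the 3 tested genes closest in pattern to each member called. One of the identity genes is not reported here. PMF1, EIF4A1, EIF3C and the genes picked for position, level or a call with the length trend taken out were named after their values were seen. Canonical transcript length was chosen after seeing the data, and the members and lists were chosen with earlier results of these data known. Read intervals and floors cover counting error only.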

Additional observations from a re-analysis of the deposited data

How the results depend on the processing

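No result changed direction past a threshold. The number of members called lower, 2, was 1 (DLX5) without the filter on low values and with DESeq2, and 0 with an adjusted p under 0.01, with an absolute log2 fold change of at least 1 and with the length trend taken out. It was 0 to 2 with a library left out. The stricter thresholds and the filter leave each log2 value as it is by construction. IBSP, at -0.38, had an adjusted p of 0.0542 from limma without the filter. It kept -0.38 with DESeq2, moved to -0.24 without the length trend, and ranged from -0.42 to -0.33 with a library left out. DLX5, at -0.26, moved to -0.13 without the length trend and ranged from -0.30 to -0.20 with a library left out. IBSP was called in 9 of 18 alternatives and DLX5 in 13 of 18. The sign of SPARC turned under scaling by library size (0.0052) and that of SP7 with the length trend taken out (0.00021). That of RUNX2, at 0.00039, turned in several alternatives, down to -0.083 without p21 OFF replicate 1. None of these gave a call. Over all genes, 1393 were called higher and 1681 lower. An adjusted p under 0.01 gave 616 and 882, a log2 fold change of at least 1 gave 48 and 152, and leaving out a library gave 695 to 1486 and 887 to 1660. Scaling by library size gave 2034 and 1194, which moved the share of higher calls from 45.3% to 63.0%. Levels per length moved with the length used. With the longest transcript RUNX2 stood at 36.3 RPKM, SP7 at 109, ALPL at 906, SPARC at 361, DLX5 at 55.2 and SPP1 at 0.0302, and with the canonical transcript RUNX2 stood at 38.5, SP7 at 109, ALPL at 906, SPARC at 361, DLX5 at 55.2 and SPP1 at 0.0788. SPARC was 261 with size factors. Apart from the length settings, the filters, thresholds and fewer samples, whose construction is the cause, the cause was not tested.

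Libraries with the same number correlated at -0.057, -0.025 and -0.048 in their deviations from the group means, so no pairing by number was seen. Whether they shared a culture or a day was not tested. With a replicate block DLX5 stood at -0.26 (adjusted p = 0.0179 from limma) and IBSP at -0.38 (adjusted p = 0.0350), both still called, with 1407 genes higher and 1513 lower. Depth limits PHEX and SPP1, with 27 and 12 reads in all libraries together.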

Other observations

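The tested genes whose values ran closest to IBSP over the 6 libraries, by Euclidean distance of gene-centred log2 values, were SLC9A3R2 (0.0517), PSMB3 (0.0551) and NAA20 (0.0583), a scaffold protein, a proteasome subunit and an N-terminal acetyltransferase subunit, with 5207 tested genes within 0.5. Those closest to DLX5 were C1orf85 (0.0628), CPSF4 (0.0635), a polyadenylation factor, and CNN2 (0.0650), a calponin, with 7434 within 0.5. None of the 6 genes is a member or on a bone list.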
